A study of Mus musculus with 80 samples.

Results

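Livers of female Balb-C mice dosed with PFESA-BP2 at 3.0 mg/kg-day were compared with livers of vehicle-dosed females, 4 mice against 4. These 8 mice were chosen by the names in their titles, libraries 17 to 20 for the dosed group and libraries 1 to 4 for the control, out of 20 mice in the whole series. PFESA-BP2, also called Nafion byproduct 2, belongs to the per- and polyfluoroalkyl substances. The mice were 10 to 12 weeks old and were gavaged once a day for 7 days. Each liver was sequenced over 4 lanes, so that the 8 mice account for 32 of 80 deposited lane records, and the deposited table already holds 1 column per mouse. The titles name the control vehicle as DMSO, whereas the dosing protocol names deionized water, and the labels do not settle which was given. No genetic change is named for any mouse. The other groups received 0.03, 0.3 or 6.0 mg/kg-day, 4 mice each, and served here to estimate the spread between mice and, for the neighbouring doses 0.3 and 6.0, to place the 3.0 dose. The series title calls the assay targeted, while the table lists 22103 genes.

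The liver clears foreign and endogenous lipophilic compounds with cytochrome P450 enzymes, which oxidise them, and with transferases that attach glutathione, glucuronic acid or sulfate. Much of this set is under the control of nuclear receptors. The constitutive androstane receptor CAR (gene Nr1i3) and the pregnane X receptor PXR (gene Nr1i2) are known for inducing Cyp2b, Cyp2c and Cyp3a genes, and PPARA for inducing Cyp4a genes and fatty acid oxidation. Many mouse liver P450 genes also differ between the sexes, through the pattern of growth hormone pulses and its mediator STAT5B. Adult hepatocytes rarely divide, and mitotic transcripts are scarce in resting liver.

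Levels are given as CPM, counts of a gene per 1000000 counts of the library's TMM-scaled total, and hold no correction for gene length, so they serve to compare mice and not genes. Changes are log2 ratios of the 3.0 group to control, with the standard error (SE) of the edgeR fit, and p-values are adjusted over all 15197 genes tested by the Benjamini-Hochberg method. The words called, rose and fell are used for an adjusted p under 0.05. The 4 control libraries held 13086779 to 21467012 counts and the 4 dosed ones 17537666 to 18916456 counts. Library 3 (control) and library 19 (3.0 mg/kg-day) stood apart from their groups on the first component of the variation within groups, as did 3 libraries of other doses. By number, each of these 5 is the third library of its group. Results were also computed without them, and the value is given where the call of a named gene ended.

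Of the 15197 genes tested, 701 (4.61%) were called at 3.0 mg/kg-day against control, 483 higher (3.18%) and 218 lower (1.43%). The rises were the larger changes. The median log2 change was 1.35 among the genes that rose and -0.823 among those that fell, against -0.024 over all genes tested. At least 4-fold changes were reached by 145 of the genes that rose and by 20 of those that fell. The CPM of the 4 dosed and 4 control mice did not overlap for 1595 genes (10.5% of those tested), among them 665 of the 701 called. The number called fell to 451 without library 20. Leaving out each of the 8 mice in turn kept 423 of the 701 calls in all 8 fits, 336 of them rises and 87 falls. Without the 5 libraries that stood apart, 577 of the 701 were called in the same direction.

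**Figure D1:**
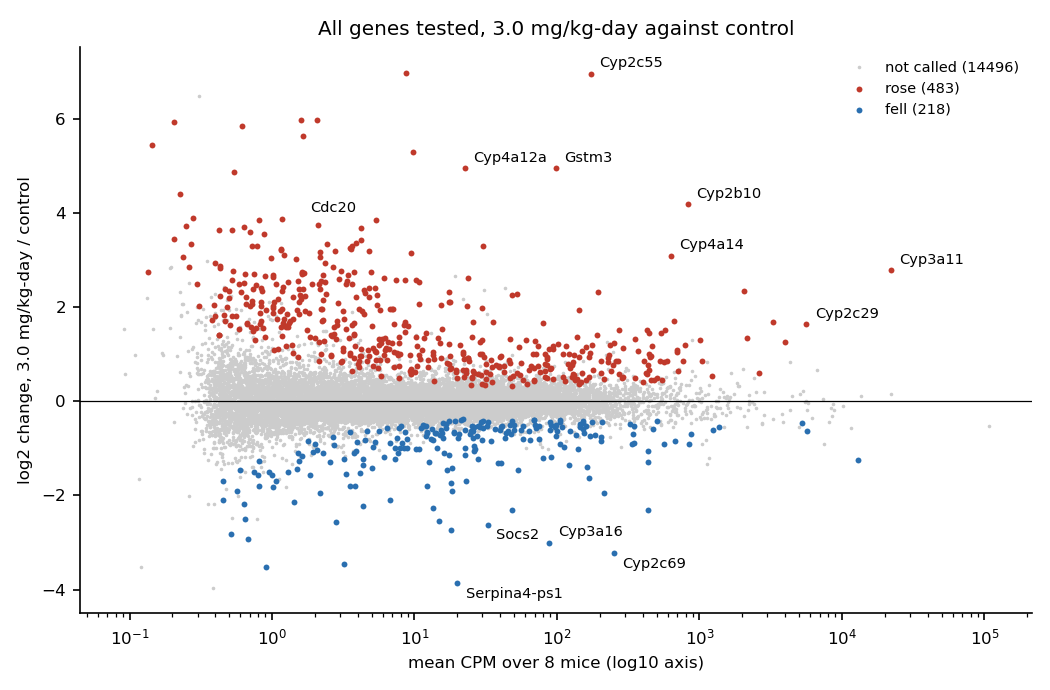
Log2 change at 3.0 mg/kg-day against control (vertical axis) against mean CPM over the 8 mice on a log10 axis (horizontal axis), 1 point per gene tested. Genes that rose (483) and fell (218) are coloured, and 12 genes described in the text are labelled.

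P450 genes known as targets of CAR and PXR were among the genes that rose most. Cyp2b10, the classical CAR target of mouse liver, lies on chr7:25897620-25926624 of GRCm38.p6 in the GENCODE annotation. It was at 72, 93.6, 64.8 and 117 CPM in control libraries 1 to 4 and at 1275, 1079.8, 2075 and 1898 CPM in dosed libraries 17 to 20. Every dosed mouse lay far above every control, and the log2 change was 4.19 ± 0.27 (adjusted p = 8.34e-09). Its relative Cyp2b9, a P450 with higher levels in females, was at 563, 550.3, 375 and 642 CPM in the controls and 687, 599.7, 487 and 633 CPM in the dosed mice. The 2 groups overlapped for Cyp2b9, with a log2 change of 0.18 ± 0.16 (adjusted p = 0.725). Cyp2b13, also female-biased, rose by 0.65 (adjusted p = 0.0144), but was called in 5 of 8 leave-one-out fits, with adjusted p = 0.0633 without library 20.

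In the Cyp2c family, of which 15 genes on chromosome 19 were tested, 7 rose, 3 fell and 5 were not called, so the family median of -0.03 describes neither side. Cyp2c55, a P450 known to respond to CAR and PXR ligands, was almost silent in the controls, at 2.27, 3.54, 1.94 and 3.25 CPM. In the dosed mice it stood at 212, 234, 425 and 505 CPM. Its log2 change of 6.96 ± 0.32 (adjusted p = 5.07e-11) was the largest of any protein-coding gene with at least 10 CPM in 1 group. Cyp2c29, the abundant CAR-responsive member, went from 2464, 3216, 2569.8 and 2766 CPM to 9345, 7052, 9429 and 8277 CPM, again with no overlap and a log2 change of 1.63 ± 0.16 (adjusted p = 1.3e-06). Rises of 1.34, 1.30 and 0.86 on the log2 scale were seen for Cyp2c50, Cyp2c54 and Cyp2c37, with adjusted p of 2.27e-06, 6.76e-06 and 0.00139. Cyp2c65 and Cyp2c66 also rose, from near 0 to no more than 1.87 and 5.57 CPM in any dosed mouse. The pseudogene Cyp2c53-ps, whose annotated span overlaps the start of Cyp2c29, was at 0.0987, 0.225, 0.224 and 0 CPM in the controls and 10.7, 12.9, 25.6 and 20.2 CPM in the dosed mice. How the counting assigned reads between such near copies was not given, so the split among Cyp2c members is uncertain.

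The members that fell were Cyp2c40, Cyp2c69 and Cyp2c68, neighbours within the cluster whose expression in females depends on growth hormone. Cyp2c69 was at 449, 336, 684 and 347 CPM in the controls and 58.2, 73.2, 42.9 and 19 CPM in the dosed mice. The lowest control was more than 4 times the highest dosed mouse, and the log2 change was -3.23 ± 0.40 (adjusted p = 2.54e-05). Cyp2c40 went from 779, 634, 942 and 559 CPM to 171, 193, 127 and 96.1 CPM, a log2 change of -2.31 ± 0.31 (adjusted p = 7.54e-05). Opposite changes thus stood within 1 gene cluster and in the same mice.

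Opposite changes were also seen among the Cyp3a genes, of which 4 of 9 rose and 2 fell, with a median log2 change of 0.90. Cyp3a11, the main PXR-inducible Cyp3a enzyme of mouse liver, was at 4893, 4926, 8371 and 4216 CPM in the controls. At 3.0 mg/kg-day it reached 28280.3, 27916, 53606 and 44211 CPM, which is 2.79 to 5.36% of all scaled counts. Its log2 change was 2.78 ± 0.28 (adjusted p = 2.33e-06), and Cyp3a59, Cyp3a25 and Cyp3a13 rose with it, by 2.33, 1.27 and 1.01. Cyp3a16, a gene of young and female liver, went the other way. Controls held 108, 64.9, 278 and 177 CPM and dosed mice 14.5, 22.2, 25.7 and 16 CPM, with no overlap and a fall of 3.00 on the log2 scale (adjusted p = 2.7e-05). The female-specific Cyp3a41b fell by 1.64 (adjusted p = 0.0472), called in 3 of 8 leave-one-out fits, with adjusted p = 0.204 without library 3. Its close relatives Cyp3a41a and Cyp3a44 had log2 changes of -1.32 ± 0.40 and -0.90 ± 0.37 that did not pass (adjusted p = 0.064 and 0.24). Control library 3 was the highest of the 8 mice for these 3 genes, and without the 5 libraries apart both changes passed, at -1.31 (adjusted p = 0.0137) and -1.04 (adjusted p = 0.00255).

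**Figure D2:**
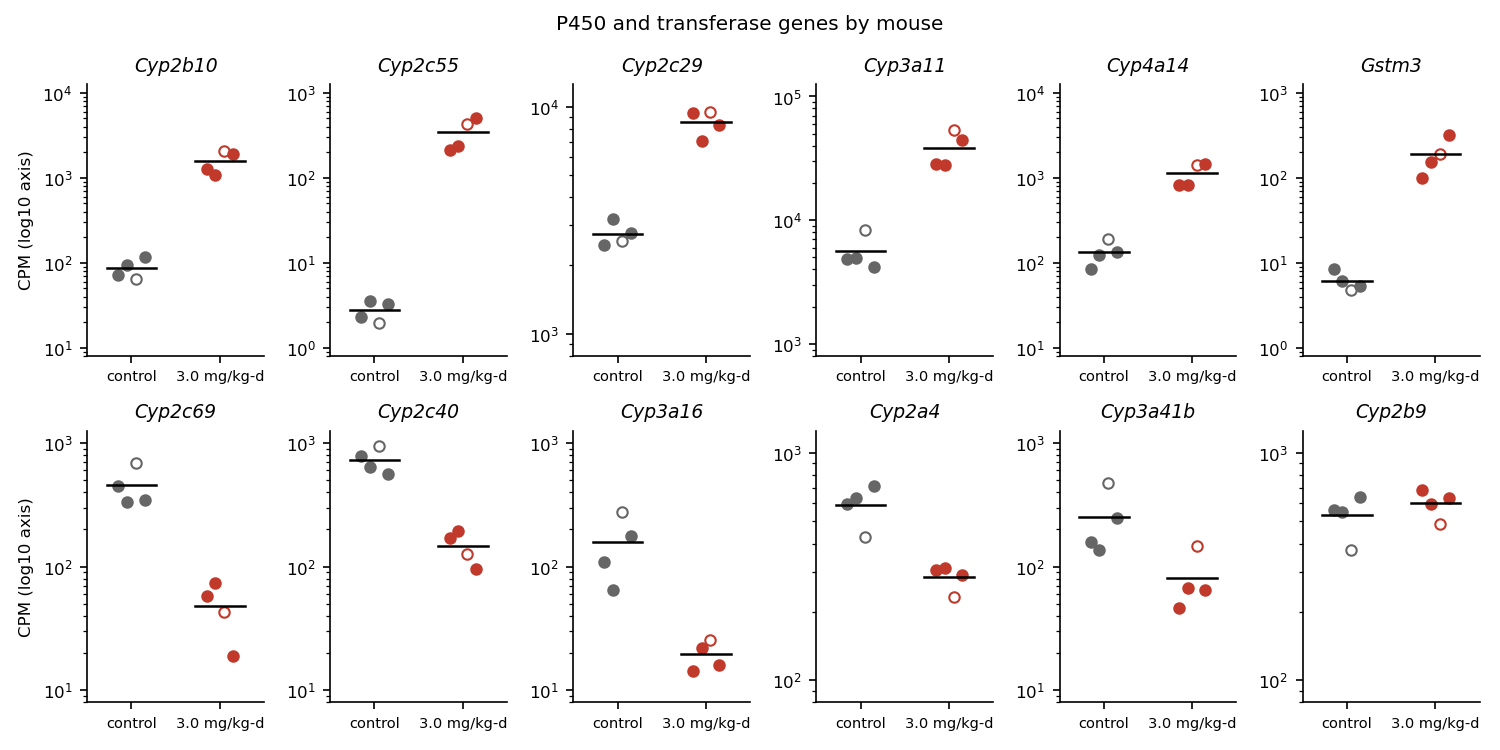
CPM of 12 P450 and transferase genes in each of the 8 mice on a log10 axis, controls in grey and 3.0 mg/kg-day in red. Open symbols are libraries 3 and 19, and horizontal bars are group means. The upper row shows genes that rose and the lower row genes that fell or, for Cyp2b9, were not called.

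Cyp4a enzymes, which hydroxylate fatty acids at the omega end and are standard PPARA targets, rose for 5 of 6 tested members, with a median log2 change of 2.35. Cyp4a14 was at 83.4, 124, 189 and 134 CPM in the controls and 816, 824, 1415 and 1467 CPM in the dosed mice, 3.09 ± 0.33 on the log2 scale (adjusted p = 3.98e-06). Cyp4a10 rose by 1.51 (adjusted p = 1.8e-05). The male-biased Cyp4a12a had 2.17, 1.91, 0.894 and 0.571 CPM in these females without dosing. With dosing it had 26, 75.8, 40.5 and 33.2 CPM, a log2 change of 4.94 ± 0.44 (adjusted p = 5.1e-07). Its neighbour Cyp4a12b (adjusted p = 0.0352) was called in 1 of 8 leave-one-out fits, with adjusted p = 0.133 without library 19, and Cyp4a32 was not called (adjusted p = 0.0619).

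None of 5 tested targets of the aryl hydrocarbon receptor was called by edgeR (1 at an unadjusted p under 0.05, 0 by DESeq2 and 0 by limma-voom). Their log2 changes ran from -1.437 to 0.551, 3 of them positive. For 1 of the 5 every dosed mouse lay below every control. Cyp1a1, its most inducible target, was at 1.23, 0.731, 0.894 and 1.48 CPM in the controls and 1.89, 0.948, 1.61 and 1.96 CPM in the dosed mice. Cyp1a2 had a log2 change of 0.38 ± 0.28 (adjusted p = 0.638). Among Cyp2a and Cyp2g genes, only Cyp2a4, a female-biased steroid hydroxylase, was called, with a fall of 1.05 (adjusted p = 0.000356), whereas Cyp2a5 had 0.18 ± 0.20 (adjusted p = 0.792). The retinoic acid hydroxylase Cyp26a1 rose by 2.62 (adjusted p = 0.000165), from 2.67, 5.4, 5.07 and 13.5 CPM to 45, 34.2, 30.5 and 54.1 CPM.

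P450 enzymes need electrons from P450 oxidoreductase and a heme group. Por, the gene of that reductase, was at 314, 238, 188 and 407 CPM in the controls and 727, 556, 427 and 888 CPM in the dosed mice, a log2 change of 1.18 ± 0.26 (adjusted p = 0.00769). Alas1, the first and limiting enzyme of heme synthesis, rose by 1.37 (adjusted p = 0.00893). Of the 14 tested genes of electron supply and heme synthesis 3 rose, against 3.18% of all genes, and none fell. The third was Cyb5r3 (adjusted p = 0.0445, called in 3 of 8 leave-one-out fits, with adjusted p = 0.171 without library 20). The heme synthesis enzyme Fech, by contrast, differed by 0.03 ± 0.098 (adjusted p = 0.953).

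Enzymes that conjugate foreign compounds were tested next. Of 21 tested glutathione transferase genes 10 rose, against 3.18% of all genes, none fell, and the median log2 change was 0.54. The highest was Gstm3 on chromosome 3, at 8.34, 6.02, 4.77 and 5.31 CPM in the controls and 100.0, 152, 189 and 317 CPM in the dosed mice. The groups did not overlap, and the log2 change was 4.95 ± 0.33 (adjusted p = 9.45e-09). Other mu class genes rose less, Gstm2 by 1.93, Gstm4 by 1.11 and Gstm1 by 1.09, while Gstm5 had 0.20 ± 0.28 (adjusted p = 0.849). In the alpha class, Gsta2 rose by 1.98 and Gsta1 by 2.71, the latter to at most 3.41 CPM. Gm3776, a protein-coding gene at chr9:78257129-78269166 that resembles the alpha class, rose from 0.79, 0.675, 0 and 0.343 CPM to 9.65, 21.5, 13.6 and 32.1 CPM (log2 change 5.29 ± 0.68, adjusted p = 4.16e-05). Gstt3, of the theta class, was at 149, 139, 142 and 138 CPM against 359.5, 344, 413 and 507 CPM and rose by 1.52 (adjusted p = 1.76e-07). The smallest differences in the list were those of Gsto1, -0.001 ± 0.24, and Gstz1, 0.04 ± 0.12.

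Glucuronidation genes rose for 6 of 19 tested members and fell for 1. Over all genes tested 3.18% rose and 1.43% fell. Ugdh, which makes UDP-glucuronic acid, the sugar donor, rose by 1.41 (adjusted p = 4.71e-05). Ugt2b35, Ugt2b34 and Ugt1a9 rose by 1.13, 1.05 and 0.78. Ugt1a1, the bilirubin transferase, rose by 0.53 (adjusted p = 0.0349) and was called in 2 of 8 leave-one-out fits, with adjusted p = 0.178 without library 20. Ugt2b37 fell by 1.53 (adjusted p = 0.00134). Among 12 sulfotransferase and sulfate donor genes 4 rose, including Sult2a1, a bile acid and steroid sulfotransferase, by 1.71 (adjusted p = 0.00403), and Papss2, which makes the sulfate donor, by 0.64 (adjusted p = 0.00262).

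Carboxylesterases, which split esters and amides, rose for 6 of 12 tested genes and fell for 1, against 3.18% and 1.43% of all genes. Ces2a was at 760.5, 891, 455 and 587 CPM in the controls and 2592, 3140.1, 2847 and 5072 CPM in the dosed mice, a log2 change of 2.34 ± 0.26 (adjusted p = 5.7e-06). Ces2c rose by 2.28, Ces1d by 0.85 and Ces2e by 0.70. Ces1c, an abundant secreted esterase, had 0.16 ± 0.11 (adjusted p = 0.597).

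Of 21 aldo-keto reductase and aldehyde dehydrogenase genes 4 rose, against 3.18% of all genes. Akr1b7, a CAR and PXR responsive reductase, rose from 1.28, 2.02, 2.38 and 2 CPM to 14.1, 12, 17.6 and 24.1 CPM, 3.15 ± 0.27 on the log2 scale (adjusted p = 3.4e-07). Aldh1a1 and Aldh1a7, retinal and aldehyde oxidising enzymes, rose by 1.68 and 1.45 (adjusted p = 8.8e-06 and 5.7e-06). Ephx1, the microsomal epoxide hydrolase, rose by 1.32 and Aox1, aldehyde oxidase, by 1.19. Flavin monooxygenases split. Fmo5 rose by 0.93 (adjusted p = 0.00192), whereas Fmo2 fell by 1.22 (adjusted p = 0.00018).

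Of 13 ABC efflux transporter genes 2 rose and 2 fell, and of 9 uptake transporter genes 1 rose and 1 fell. Over all genes tested 3.18% rose and 1.43% fell. Abcc4, an efflux pump of the basolateral membrane and a CAR target, rose by 2.03 (adjusted p = 1.23e-05), from 7.95, 7.37, 9.32 and 12.4 CPM to 26.6, 24.5, 44.6 and 55.3 CPM. Abcc3 rose by 0.96 and the uptake carrier Slco1a4 by 0.85 (adjusted p = 0.00908 and 0.00147). Slc22a7, an organic anion carrier, fell by 1.00 (adjusted p = 0.0134) and was called in 6 of 8 leave-one-out fits, with adjusted p = 0.0664 without library 20. Abcg5 and Abcg8, which together export sterols into bile, fell by 0.39 and 0.58 (adjusted p = 0.0235 and 0.0138). Abcg5 was called in 3 of 8 leave-one-out fits, with adjusted p = 0.0867 without library 20, and Abcg8 was called in 7 of 8 leave-one-out fits, with adjusted p = 0.0536 without library 20. Slc10a1, the main bile acid uptake carrier, had 0.23 ± 0.20 (adjusted p = 0.702) and Abcb11, the bile salt export pump, 0.16 ± 0.14 (adjusted p = 0.699).

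Genes of the receptors themselves were not called higher. Of 24 nuclear receptor and partner genes 3 fell, against 1.43% of all genes, and none rose. Besides Nr1i3 and Ppara, the clock repressor Nr1d1 fell (by 0.63, adjusted p = 0.0257, called in 2 of 8 leave-one-out fits, with adjusted p = 0.0937 without library 20). Nr1i3 (CAR) was at 194, 243, 206 and 269.7 CPM in the controls and 155, 140.3, 129 and 132 CPM in the dosed mice, a fall of 0.71 (adjusted p = 0.00403). Ppara was at 98.1, 92.8, 84.7 and 102 CPM against 55.6, 53.2, 57.1 and 50.5 CPM, a fall of 0.80 (adjusted p = 0.00992). For both receptors the highest dosed mouse lay below the lowest control. Nr1i2 (PXR) had 0.47 ± 0.17 (adjusted p = 0.139) and passed without the libraries apart (0.50, adjusted p = 0.0166), 1 of 2 genes of the list called higher in that fit. Transcript levels of a receptor do not measure its activity.

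Of genes known as PPARA targets outside the Cyp4a family, a minority were called, and PPARA activity was not tested. Of 25 genes of peroxisomal oxidation and peroxisome assembly 3 rose and 1 fell (median 0.09). Of 24 acyl-CoA thioesterase and other PPARA target genes 4 rose (median 0.16). Over all genes tested 3.18% rose and 1.43% fell. The number of peroxisomal genes that rose was 1 without library 1, 2, 19 or 20 and 2 without the libraries apart. Acaa1b, a peroxisomal thiolase, rose by 1.18 (adjusted p = 8.78e-05), from 486, 506, 406 and 528 CPM to 816, 1183, 1104 and 1269 CPM. Acot1, a cytosolic thioesterase, rose by 1.30 and Acot2 by 0.93 (adjusted p = 0.000356 and 0.000354), and the fatty acid transporter Cd36 rose by 0.98 (adjusted p = 0.00709). Ehhadh, the bifunctional enzyme, rose by 0.58 (adjusted p = 0.0244) and was called in 4 of 8 leave-one-out fits, with adjusted p = 0.113 without library 19. Acot3, a peroxisomal thioesterase with higher levels in females, fell by 1.18 (adjusted p = 0.00409). Vnn1 (pantetheinase) had 0.47 ± 0.24 (adjusted p = 0.414). It was at 44.7, 44.8, 36 and 26.7 CPM in the controls and 36.5, 35.6, 67.8 and 70.5 CPM in the dosed mice, so that libraries 19 and 20 lay above all controls and 17 and 18 within their range. Of 19 mitochondrial oxidation genes 2 rose and 1 fell, the fall being that of Cpt1a, the mitochondrial entry enzyme (0.48, adjusted p = 0.0393, called in 2 of 8 leave-one-out fits, with adjusted p = 0.141 without library 20). The number that rose was 1 without library 20 and 4 without the libraries apart. None of 5 ketogenesis genes was called by edgeR (2 at an unadjusted p under 0.05, 1 by DESeq2 and 0 by limma-voom), and 1 was without the libraries apart.

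Cholesterol synthesis genes moved in 1 direction. All 25 tested members had a positive log2 change, 10 of them called, and the median was 0.69. Hmgcs1, which makes HMG-CoA, was at 489, 365, 385 and 376 CPM in the controls and 569.9, 572, 779.7 and 956 CPM in the dosed mice, a rise of 0.83 (adjusted p = 0.00756). Farther down the pathway Mvd rose by 1.18, Idi1 by 0.97, Fdps by 0.99, Sqle by 1.14 and Lss by 0.82, with adjusted p from 0.000298 to 0.008. Without library 20 the number called was 6, and without the libraries apart it was 18. Of 23 lipogenesis genes 4 rose, against 3.18% of all genes: Elovl3 by 2.11 and Elovl6 by 1.22, both elongases, Insig2 by 1.44 and Pnpla3 by 1.95. Without the libraries apart 7 rose. Scd1, the stearoyl-CoA desaturase, had 0.49 ± 0.23 (adjusted p = 0.334).

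Genes of mitosis and cytokinesis rose almost without exception. All 36 tested members had a positive log2 change, 34 were called, and the median was 2.52, or more than 5-fold. Of the 36 genes, 34 were higher in every dosed mouse than in any control. Over all genes tested 3.18% rose, and the 2 groups did not overlap in either direction for 10.5%. Cdc20, which activates the anaphase-promoting complex, was at 0.494, 0.225, 0.224 and 0.171 CPM in the controls and 3.29, 3.61, 4.53 and 4.31 CPM in the dosed mice (log2 change 3.75 ± 0.30, adjusted p = 2.08e-07). Prc1, a protein of the spindle midzone, was at 0.592, 0.9, 0.522 and 0.628 CPM against 3.88, 6.04, 8.33 and 7.5 CPM (log2 change 3.26 ± 0.26, adjusted p = 1.76e-07). The mitotic cyclins also rose, Ccnb1 by 3.24, Ccnb2 by 2.76 and Ccna2 by 2.61. Top2a, the topoisomerase of dividing cells, was at 3.31, 2.81, 2.98 and 2.74 CPM against 11.8, 16.1, 19.4 and 23.2 CPM, and the proliferation marker Mki67 at 2.62, 2.47, 2.53 and 2.17 CPM against 7.98, 12.6, 19 and 18.7 CPM. Their log2 changes were 2.57 ± 0.37 and 2.57 ± 0.31 (adjusted p = 0.000155 and 2.41e-05). The members not called were Cenpa (0.41 ± 0.20, adjusted p = 0.346) and Aurka (0.63 ± 0.19, adjusted p = 0.0574). The summed CPM of the 36 genes was 50.5, 41.5, 48.1 and 40 in control libraries 1 to 4 and 142, 174, 231 and 229 in libraries 17 to 20.

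DNA replication and S phase genes rose in fewer cases, 14 of 31, against 3.18% of all genes, with a median of 0.75 and no fall. The helicase subunits Mcm6, Mcm5 and Mcm2 rose by 2.74, 1.96 and 1.33. Rrm2, the inducible subunit of ribonucleotide reductase, rose by 2.36 and Uhrf1, which couples DNA methylation to replication, by 2.38. The constitutive subunit Rrm1 (0.52 ± 0.22, adjusted p = 0.242) was not called. In bulk liver, more dividing cells and more transcript per dividing cell cannot be told apart, nor can the dividing cell type be read from these genes.

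**Figure D3:**
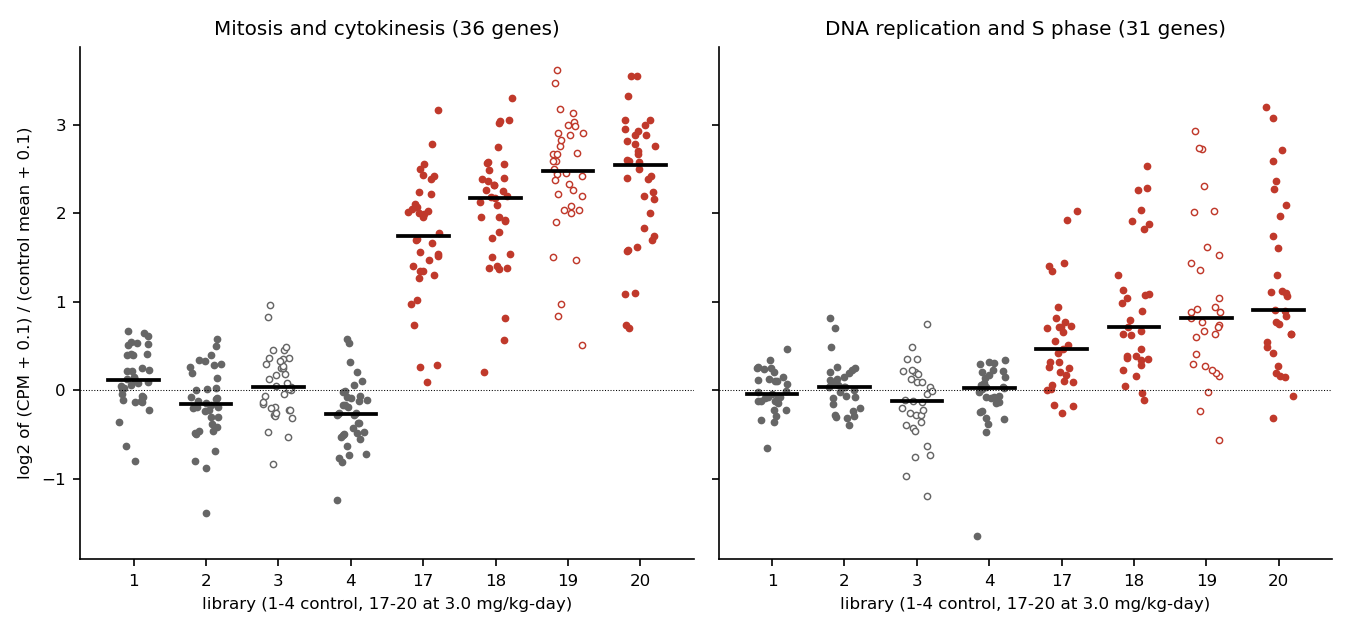
Log2 ratio of CPM to the control mean, each with 0.1 CPM added, for the 36 mitosis genes (left) and 31 S phase genes (right) in each of the 8 mice. Points are genes, bars are medians, and mice are in order of library number. The 4 dosed mice have medians above those of all 4 controls in both panels.

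The promoters of these genes are shown because the rise was shared by nearly the whole mitosis list, and such genes are known to carry 2 short elements, the CHR (TTTGAA) and the CCAAT box. Windows of 300 bases, 250 before the start to 50 after it, were taken from RefSeq on GRCm38.p6, and both strands were searched. In each line capitals mark the CHR, which reads TTCAAA on the other strand, and the CCAAT box, which reads ATTGG there. In the order shown, their positions are chr4:118437294-118437593 (minus strand), chr9:70421505-70421804 (minus), chr7:80294201-80294500 (plus) and chr11:99024140-99024439 (minus).
Cdc20: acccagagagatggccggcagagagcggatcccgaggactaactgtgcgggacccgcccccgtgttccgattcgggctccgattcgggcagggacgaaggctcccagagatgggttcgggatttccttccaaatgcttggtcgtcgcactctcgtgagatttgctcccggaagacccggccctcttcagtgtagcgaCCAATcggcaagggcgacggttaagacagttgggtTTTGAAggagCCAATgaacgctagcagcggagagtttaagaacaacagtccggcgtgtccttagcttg
Ccnb2: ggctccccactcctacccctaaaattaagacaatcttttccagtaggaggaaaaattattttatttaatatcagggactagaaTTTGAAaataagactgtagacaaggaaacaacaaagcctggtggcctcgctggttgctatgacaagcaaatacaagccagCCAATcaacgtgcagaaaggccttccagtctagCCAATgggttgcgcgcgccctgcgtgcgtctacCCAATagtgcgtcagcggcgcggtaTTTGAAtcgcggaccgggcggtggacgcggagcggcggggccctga
Prc1: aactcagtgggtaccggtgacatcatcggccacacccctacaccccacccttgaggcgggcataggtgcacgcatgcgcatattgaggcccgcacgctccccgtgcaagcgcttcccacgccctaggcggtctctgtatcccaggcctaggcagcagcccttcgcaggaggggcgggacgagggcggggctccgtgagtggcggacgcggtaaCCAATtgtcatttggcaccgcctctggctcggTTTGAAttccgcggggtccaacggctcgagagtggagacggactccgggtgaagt
Top2a: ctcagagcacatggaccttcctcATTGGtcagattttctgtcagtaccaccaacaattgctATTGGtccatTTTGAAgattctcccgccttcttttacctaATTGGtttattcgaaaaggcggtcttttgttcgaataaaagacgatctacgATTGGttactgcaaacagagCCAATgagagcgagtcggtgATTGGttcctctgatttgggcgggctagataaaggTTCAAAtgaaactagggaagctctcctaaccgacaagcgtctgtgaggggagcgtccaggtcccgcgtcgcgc

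TTTGAA was present in 23 of 31 windows of the mitosis list (29 genes had a window) and in 17.9% of all 32851 windows. CCAAT was present in 23 of 31 and in 37.4% of all. The 2 together were found in 20 of 31 windows, against 6.95% of all. In the S phase list TTTGAA stood in 3 of 31 windows and CCAAT in 18 of 31. CCAAT also stood in 19 of 27 windows of the glutathione transferase list. TTTGAA is short and rich in A and T, and 9 of 14 Cyp2c windows also held it, so a match is a description of the letters and not evidence of a factor's binding.

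S phase genes are known instead for E2F elements. Mcm6 is shown on chr1:128359656-128359955 (minus strand), with capitals at TTTGGCGC or its reverse complement GCGCCAAA.
Mcm6: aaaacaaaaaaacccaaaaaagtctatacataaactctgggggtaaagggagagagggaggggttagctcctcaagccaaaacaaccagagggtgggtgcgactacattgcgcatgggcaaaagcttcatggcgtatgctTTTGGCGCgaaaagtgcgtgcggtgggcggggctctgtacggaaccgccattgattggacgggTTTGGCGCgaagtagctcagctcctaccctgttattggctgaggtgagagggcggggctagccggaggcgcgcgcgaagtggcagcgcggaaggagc

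TTTGGCGC was found in 5 of 31 S phase windows, in 0 of 31 mitosis windows and in 0.514% of all windows. The related TTTCCCGC (reverse complement GCGGGAAA) was found in 5 of 31, 0 of 31 and 1.07%. For the cholesterol genes the promoter of Hmgcs1, on chr13:119690101-119690400 (plus strand), carries both CCAAT boxes and the sterol element core CACCCCAC, whose reverse complement is GTGGGGTG. Capitals mark these letters on either strand.
Hmgcs1: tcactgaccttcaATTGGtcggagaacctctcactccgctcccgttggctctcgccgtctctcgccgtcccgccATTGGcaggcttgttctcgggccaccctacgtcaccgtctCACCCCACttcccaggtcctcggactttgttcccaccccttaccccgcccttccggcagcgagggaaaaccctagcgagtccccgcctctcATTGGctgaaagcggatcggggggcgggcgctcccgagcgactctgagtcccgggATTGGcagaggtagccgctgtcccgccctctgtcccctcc

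CCAAT was found in 16 of 20 windows of the cholesterol list (37.4% of all windows) and CACCCCAC in 2 of 20 (2.87% of all). Absence of the exact letters from a window says nothing about SREBP2 at that gene.

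Of 21 cyclin, E2F and growth driver genes 3 rose and 1 fell, against 4.61% of all genes called. Gadd45b, an early gene of the CAR response and of liver growth, was at 0.642, 0.731, 0.671 and 0.685 CPM in the controls and 6.69, 5.09, 6.3 and 10.4 CPM in the dosed mice, a log2 change of 3.37 ± 0.32 (adjusted p = 9.42e-07). E2f2 rose by 1.97 and Jun by 1.25 (adjusted p = 4.07e-05 and 0.000458). Egfr, the EGF receptor of hepatocytes, fell from 230.5, 211, 309 and 195 CPM to 76.8, 118, 95.7 and 67.3 CPM (1.40, adjusted p = 0.00244). Ccnd1, cyclin D1, had -0.28 ± 0.25 (adjusted p = 0.718) and Myc 1.28 ± 0.40 (adjusted p = 0.0823). The immediate early gene Egr1 fell from 26.2, 23.7, 60.4 and 14.6 CPM to 5.66, 7.29, 3.64 and 2.02 CPM, a log2 change of -2.75 ± 0.46 (adjusted p = 0.000783).

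Of 23 p53 targets and cell cycle inhibitors 3 rose, against 3.18% of all genes. Cdkn1a, the inhibitor p21, was at 2.91, 1.91, 1.79 and 1.48 CPM in the controls and 2.48, 5.27, 7.44 and 6.77 CPM in the dosed mice. Library 17 lay within the control range, and the log2 change was 1.43 ± 0.29 (adjusted p = 0.00452). Gdf15, a secreted stress signal, rose by 1.97 (adjusted p = 2.34e-06), while Mdm2 and Ccng1 had 0.41 ± 0.13 and 0.12 ± 0.16 (adjusted p = 0.0847 and 0.836). Tsku, a secreted hepatokine, rose by 3.29, from 3.21, 3.71, 3.8 and 11.6 CPM to 34.6, 27.1, 82.2 and 74.9 CPM (adjusted p = 9.21e-05). Smpd3, a neutral sphingomyelinase, rose by 3.84 (adjusted p = 1.28e-06).

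Genes of growth hormone signalling fell or were not called. Of 15 tested, 4 fell, against 1.43% of all genes, and none rose, with a median of -0.51. Socs2, a direct STAT5 target and feedback inhibitor, was at 65.3, 45.9, 81.4 and 33.4 CPM in the controls and 9.87, 13.1, 9.47 and 4.2 CPM in the dosed mice, a log2 change of -2.62 ± 0.36 (adjusted p = 7.79e-05). Igf1, the circulating growth factor, fell from 1111, 974, 1343 and 993 CPM to 588, 613, 623 and 514 CPM, by 0.92 (adjusted p = 0.00135). Cux2, a repressor found in female liver, fell by 2.55 (adjusted p = 0.00026) and Igfals, which binds circulating IGF1, by 0.63 (adjusted p = 0.0225, called in 4 of 8 leave-one-out fits, with adjusted p = 0.111 without library 20, and 0.0567 without the libraries apart). The receptor Ghr had -0.54 ± 0.17 (adjusted p = 0.0767) and the feedback gene Cish -0.51 ± 0.30 (adjusted p = 0.502). Bcl6, a male-biased repressor, had -0.87 ± 0.35 (adjusted p = 0.231).

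Female-biased liver genes changed often, in both directions: 14 of 32 fell, 7 rose, and the median was -0.55. Over all genes tested 1.43% fell and 3.18% rose. This list shares members with the P450 lists, and its largest fall is that of Cyp2c69, given above. A1bg, a plasma protein of female liver, was at 84.3, 86.8, 50.5 and 103 CPM in the controls and 22.9, 24.8, 8.12 and 9.52 CPM in the dosed mice, a log2 change of -2.31 ± 0.46 (adjusted p = 0.00377). Among the members that rose are xenobiotic enzymes already described, such as Cyp4a14, Cyp4a10, Sult2a1 and Gstt3. Of 27 male-biased genes 6 rose and 2 fell, or 1 without library 1, 2, 17 or 20. Cyp4a12a and Elovl3 rose as given above, Cyp2d9 by 0.84 (adjusted p = 0.00501) and Mup20, a urinary protein made mainly by males, from 17.7, 21.7, 14 and 14.6 CPM to 32.8, 46.3, 41.7 and 41 CPM (1.25, adjusted p = 4.16e-05). Serpina4-ps1, a male-biased pseudogene, fell from 17.1, 38.9, 67.7 and 26.2 CPM to 1.29, 4.74, 3.07 and 1.18 CPM, the largest fall of any gene with at least 10 CPM in 1 group (log2 change -3.86 ± 0.54, adjusted p = 9.65e-05). Slco1a1 and Cyp7b1, both higher in males, had -0.96 ± 0.29 and -0.29 ± 0.12 (adjusted p = 0.062 and 0.249). Mup20 was the only one of 20 tested major urinary protein genes that was called. All 20 had a positive log2 change (median 0.64), 10 of them at an unadjusted p under 0.05 by edgeR. With a term for the libraries apart 5 rose. The high similarity of these genes makes counts of single members uncertain.

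**Figure D4:**
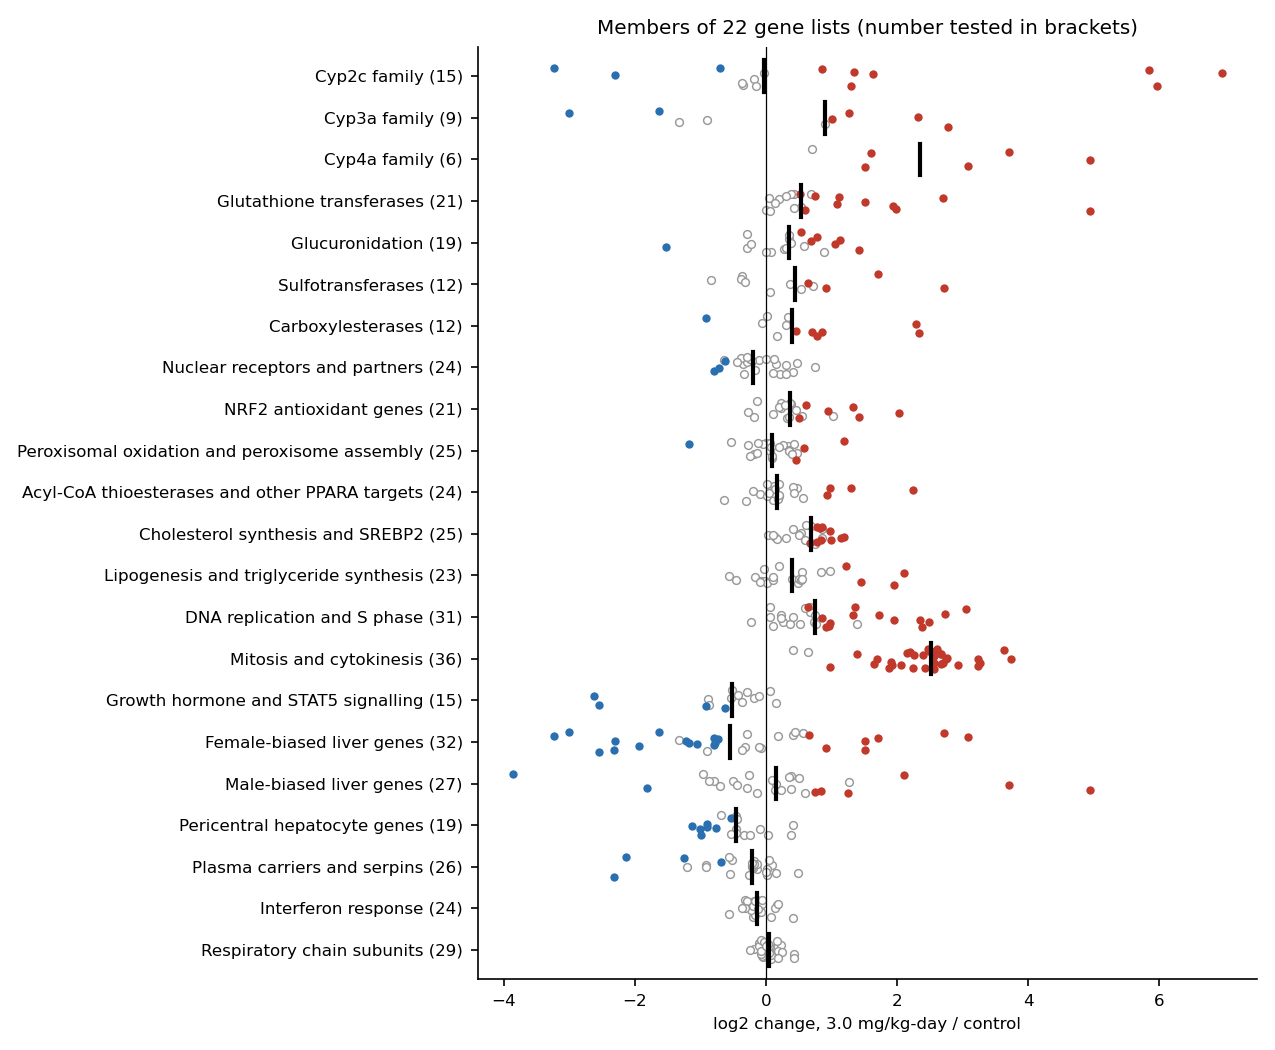
Log2 change at 3.0 mg/kg-day against control of each tested member of 22 gene lists, 1 row per list. Filled red and blue points rose and fell, open grey points were not called, and black bars are list medians. In the mitosis list all 36 members lie to the right of 0 and 34 are called, in the pericentral list 7 of 19 members are called, to the left, and the Cyp2c list spreads both ways.

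Genes of the pericentral zone, the layer of hepatocytes around the central vein, fell for 7 of 19 tested members and rose for none, with a median of -0.46. Over all genes tested 3.18% rose and 1.43% fell. Glul, glutamine synthetase of the innermost layer, was at 875, 821, 594 and 672 CPM in the controls and 484, 504, 288 and 308 CPM in the dosed mice, a fall of 0.90 (adjusted p = 0.0193, called in 4 of 8 leave-one-out fits, with adjusted p = 0.0953 without library 20). Lgr5, a receptor of the Wnt pathway, fell by 1.00, the glutamate carrier Slc1a2 by 1.01 and Slc13a3 by 1.13, all called in every leave-one-out fit. Axin2, a Wnt target, had -0.45 ± 0.18 (adjusted p = 0.231) and Cyp2e1 -0.44 ± 0.15 (adjusted p = 0.13). The number that fell was 4 without library 1, 3 without library 19 or 20 and 5 without the libraries apart. The 17 periportal genes had a median of -0.30, and 8 had an unadjusted p under 0.05 by edgeR, against 12 of the 19 pericentral genes. Among the 17 only Pck1 was called. It encodes the key enzyme of glucose production and was at 606, 636, 575 and 674 CPM against 351, 289, 174 and 197 CPM, a fall of 1.30 (adjusted p = 0.000497). Cps1, the entry enzyme of the urea cycle, differed by -0.04 ± 0.18 (adjusted p = 0.963).

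Of 17 tested genes of bile acid synthesis and handling, 2 fell, against 1.43% of all genes, and none did without library 3 or 20. Cyp7a1, the rate-limiting enzyme of bile acid synthesis, was at 69.8, 40.3, 106 and 95.1 CPM in the controls and 37.5, 37, 24.9 and 13 CPM in the dosed mice, a fall of 1.47 (adjusted p = 0.0143). The call did not hold without the libraries apart (-1.21, adjusted p = 0.0745), and the gene was called in 6 of 8 leave-one-out fits, with adjusted p = 0.061 without library 20. Cyp8b1 had -0.50 ± 0.32 (adjusted p = 0.55).

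Of 26 plasma carrier and serpin genes 4 fell and of 24 coagulation genes 1 fell, against 1.43% of all genes. Without the libraries apart 8 of the 26 fell. Serpina3k, an abundant protease inhibitor, was at 18038, 21023, 20183 and 14215 CPM in the controls and 7646, 7689, 9995 and 5582 CPM in the dosed mice, a fall of 1.25 (adjusted p = 0.00308). F11, coagulation factor XI, fell by 0.72 (adjusted p = 0.00527). Alb, albumin, was lower in all 4 dosed mice, at 94907, 100708, 69219 and 86759.6 CPM against 138237, 121458, 145316 and 101617 CPM, but did not pass (-0.53 ± 0.18, adjusted p = 0.126). Of 20 acute phase genes 3 rose, against 3.18% of all genes, and 5 rose without library 19. Saa2, serum amyloid A2, was at 71.7, 30.4, 5.26 and 9.74 CPM in the dosed mice and 6.22, 6.19, 3.35 and 7.65 CPM in the controls, so libraries 17 and 18 were high and 19 was within the control range. Its adjusted p was 0.0426, and it was called in 2 of 8 leave-one-out fits, with adjusted p = 0.267 without library 17, while Saa1 had 1.85 ± 0.61 (adjusted p = 0.104). Orm2 and Orm3, orosomucoids, rose by 1.35 and 1.68 (adjusted p = 0.00355 and 0.00716).

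Among iron genes Tfrc, the transferrin receptor, rose by 1.69 (adjusted p = 0.00307), from 8.54, 9, 13.9 and 17.1 CPM to 30.3, 24.6, 47 and 54 CPM, and Slc40a1, the iron exporter, fell by 0.53 (adjusted p = 0.00273). Of 21 NRF2 antioxidant genes 6 rose, against 3.18% of all genes. Among them was Srxn1, sulfiredoxin, by 0.95 (adjusted p = 0.00618), while Nqo1, the usual NRF2 marker, had 0.33 ± 0.27 (adjusted p = 0.684). None of 24 interferon response genes was called by edgeR (2 at an unadjusted p under 0.05, 0 by DESeq2 and 0 by limma-voom), and none of 29 respiratory chain subunits (0 at an unadjusted p under 0.05, 0 by DESeq2 and 0 by limma-voom). Of 31 proteasome subunits all had a positive log2 change (median 0.27) and 1 was called, against 4.61% of all genes. None was called without library 3, 4, 18 or 20, and 4 were without the libraries apart.

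Defining markers of hepatocytes were present, and edgeR called 0 of 15 (4 at an unadjusted p under 0.05, 4 by DESeq2 and 0 by limma-voom), with a median of -0.14 and a summed level of 154197 to 201138 CPM in the controls and 106201 to 152587 CPM in the dosed mice. Without the libraries apart 1 of them fell, as did 1 of the sinusoidal endothelial markers. All 14 Kupffer cell markers had a negative log2 change (median -0.19), and 1 fell, Slc40a1, which hepatocytes also express. Their summed level was 715 to 871 against 608 to 670.1 CPM. None of 15 sinusoidal endothelial markers was called by edgeR (3 at an unadjusted p under 0.05, 1 by DESeq2 and 0 by limma-voom; 420.2 to 459.9 against 381 to 421 CPM summed). Over all genes tested 3.18% rose and 1.43% fell. Of 15 stellate cell markers 1 rose, Tagln, and 1 fell, Rgs5 (446 to 487 against 366 to 410.2 CPM). Neither call was stable: Tagln was called in 1 of 8 leave-one-out fits, with adjusted p = 0.15 without library 4, and was not called without the libraries apart (adjusted p = 0.0722), and Rgs5 was called in 2 of 8 leave-one-out fits, with adjusted p = 0.145 without library 20. T and NK cell markers were near 0 in both groups, 9 tested genes summing to 6.74 to 9.45 and 6.77 to 9.49 CPM. No marker of cholangiocytes, T, NK, B or plasma cells, neutrophils, dendritic cells or erythroid cells was called by edgeR, though 1 neutrophil and monocyte gene and 1 erythroid gene had an unadjusted p under 0.05 and the same number of each was called by DESeq2 and none by limma-voom. The ranges of the hepatocyte, Kupffer and stellate sums did not overlap between the groups, the dosed mice being lower. Most of the hepatocyte sum was Alb, which was lower in all dosed mice and was not called. The separation of that sum therefore says little about the other hepatocyte markers. The part of these cells in the changes above was not tested.

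The neighbouring doses place the 3.0 response. Against 0.3 mg/kg-day, 498 genes (3.28%) were called at 3.0, 367 higher (2.41%) and 131 lower (0.862%), and 257, 267 and 294 without libraries 20, 14 and 19. In the mitosis list 34 of 36 genes were again higher (median 2.14), Cdc20 by 2.57 and Ccnb1 by 3.20. Cyp2c55 was higher than at 0.3 mg/kg-day by 3.52 (adjusted p = 4.51e-07), Cyp2b10 by 1.44 (adjusted p = 0.00143) and Cyp4a14 by 2.56 (adjusted p = 5.79e-05). For Cyp2c29 the difference was -0.05 ± 0.15 (adjusted p = 0.9), not called, with group means of 2754, 8853 and 8526 CPM at 0, 0.3 and 3.0 mg/kg-day. Cyp3a16, low at 3.0 mg/kg-day, was likewise not called between these doses (-0.27 ± 0.35, adjusted p = 0.755), with means of 157, 23.7 and 19.6 CPM. Egr1 and Bmf, a pro-apoptotic gene, were among the 5 largest falls from 0.3 to 3.0 mg/kg-day, by 2.08 and 1.32.

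From 3.0 to 6.0 mg/kg-day 318 genes (2.09%) were called, 157 higher (1.03%) and 161 lower (1.06%) at 6.0. The count moved with single mice. It was 110 without library 17, 126 without library 22, 133 without library 18 and 969 without library 23, a library apart. Fitting only these 2 groups called 0 genes with edgeR (1575 at an unadjusted p under 0.05), while over all groups DESeq2 called 658 and limma-voom 367. Cyp2b10 differed by 0.51 ± 0.24 (adjusted p = 0.316) and Cyp3a11 by 0.74 ± 0.27 (adjusted p = 0.164), neither called. In the mitosis list 12 of 36 genes were higher still (median 0.985). Cyp1a1, not called at 3.0 against control, was higher at 6.0 than at 3.0 by 4.80 (adjusted p = 0.0045), with 13.9, 147, 16.5 and 2.15 CPM in libraries 21 to 24, so that 1 of the 4 mice at 6.0 lay close to the 3.0 group. The female-biased genes Cyp2c69, Cyp2c40 and A1bg were lower again, by 2.17, 1.95 and 2.03 on the log2 scale (adjusted p = 0.00562, 0.00286 and 0.0318). Cyp4a12a was higher by 2.95 (adjusted p = 0.000624) and Gm3776 by 2.70 (adjusted p = 0.00722). These comparisons share the 4 mice at 3.0 mg/kg-day, and their values are given side by side only.

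**Figure D5:**
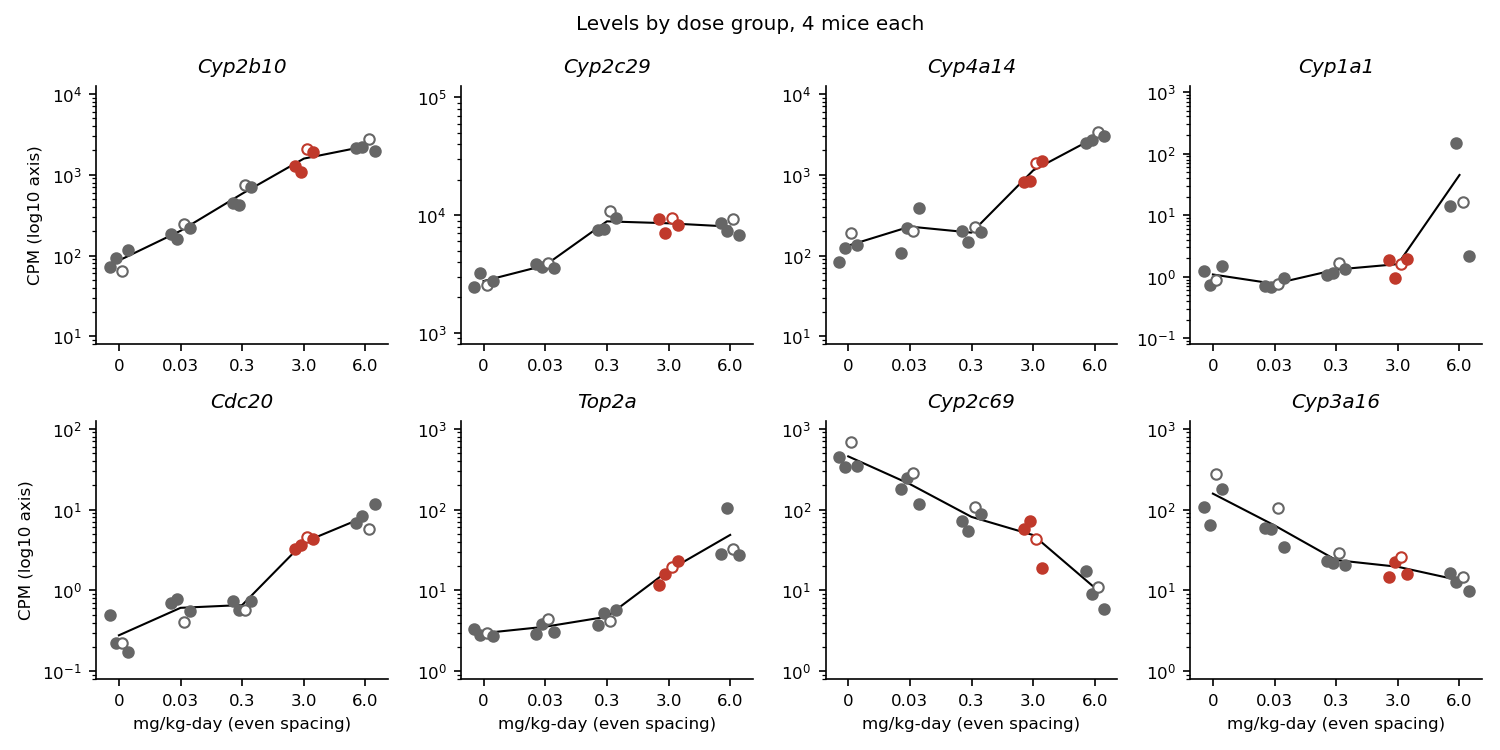
CPM of 8 genes in all 20 mice on a log10 axis, by dose group in mg/kg-day, rising from the control on the left, evenly spaced. Points are mice, lines join group means, and open symbols are the 5 libraries that stood apart. The means of Cyp2c29 at 0.3 and 3.0 mg/kg-day are close (8853 and 8526 CPM), whereas the means of Cdc20 and Top2a are higher at 3.0 than at 0.3 mg/kg-day.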

How the data were processed

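Liver total RNA, kept in RNAlater and extracted with Trizol and RNeasy columns, was sequenced on an Illumina NextSeq instrument, per the labels' protocols. The authors deposited estimated counts (expected counts) per gene for 22103 genes, with Partek and build GRCm38.p5 listed in the submitters' processing notes, the step of each unsaid. The table has 1 column per mouse with its 4 lanes joined, and 58% of its values are whole numbers. The aligner, counting method, annotation and strand setting were not stated in the labels or the table, and the smallest row total is 10 counts. Columns were tied to mice and doses by the names in the labels.

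Counts were rounded, 6906 low rows were left out by filterByExpr, libraries were scaled by TMM factors, and all 20 libraries in 5 groups were fitted with edgeR's quasi-likelihood test (edgeR 4.0.16, limma 3.58.1, R 4.3.3, 15 residual degrees of freedom), with Benjamini-Hochberg adjustment over 15197 genes. Each library came from a separate animal. Depth is given in the report. The fit was tested on simulated data with every library drawn independently, so the variation shared by the third libraries was not simulated. Of 50 genes each, edgeR called 34 and 32 at true log2 changes of 1 and -1. At true log2 changes of 2 and -2 it called 50 and 45. Of all rows, 21 bear names that look like dates and were not named.

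Alternatives were RLE factors, total counts without factors, all rows tested, DESeq2 1.42.0, limma-voom, only the groups compared, unrounded counts, a term for the 5 libraries apart (scores of at least 0.27 on a component holding 42.7% of the variation within groups, others at most -0.02), leaving those out, leaving out each mouse, and a block by place in the group, chosen after seeing the data. The members and the gene lists were chosen with earlier results of these data known. Named were called genes with at least 10 CPM in 1 group and no overlap (15 at each end of the log2 change), the 5 smallest p-values and up to 2 abundant uncalled genes of each list, the 5 largest changes each way between neighbouring doses, all members of the Cyp2b, Cyp2c, Cyp3a, Cyp4a and glutathione transferase lists, and a set of sentinel genes. The text names part of these, and results for a few genes are not reported here.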

Additional observations from a re-analysis of the deposited data

Results flagged for a closer look

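For the 48 genes whose CPM is given mouse by mouse, the control and 3.0 mg/kg-day groups were checked for a mouse far from the other 3 of its group, by Dixon's ratio of gap to range against its 95% critical value for 4 samples. Chance flags about 1 in 20 groups, and 5 of 96 passed the critical value. Tsku was at 11.65 CPM in control library 4, against 3.209 to 3.801 CPM in the other controls. Cdc20 was at 0.4937 CPM in control library 1, against 0.1713 to 0.2249 CPM. Hmgcs1 was at 489.5 CPM in control library 1, against 365.0 to 385.3 CPM. Cyp3a11 was at 8371 CPM in control library 3, a library apart, against 4216 to 4926 CPM. Each of these values was the highest control for its gene. Afp was at 4.638 CPM in dosed library 17, against 4.265 to 4.32 CPM in the other dosed mice.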

How the results depend on the processing

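The 701 calls at 3.0 mg/kg-day against control became 1393 when the libraries apart had their own term in the fit, and 451 to 681 when 1 mouse was left out, lowest without library 20, and stayed within 1.5 times under the other settings except the block given last. The 498 calls against 0.3 mg/kg-day became 844 with DESeq2, 1862 with the term, 1016 without the libraries apart and 257 to 509 without 1 mouse. The 318 calls of 6.0 against 3.0 mg/kg-day became 658 with DESeq2, 0 with only the groups compared, 1400 with the term, 1476 without the libraries apart and 110 to 969 without 1 mouse. The cause was not tested. Of the called genes named, 111 of 135 were called in every setting, and no named gene reversed its direction. The labels share no library number between groups, but the libraries apart are the third of each group by number. A replicate block by place in the group, chosen after seeing the data, gave 1361, 1882 and 1309 calls for the comparisons in the order above, among them all 701, 498 and 318. Deviations from the group means correlated at 0.53 to 0.73 between the third libraries, at 0.073 to 0.32 between the first, at 0.12 to 0.38 between the second, at -0.0031 to 0.15 between the fourth and at -0.54 to 0.39 between libraries of different places. Deviations within a group cancel out, so a shift shared by the third libraries also raises the correlations at the other places. The smallest change called against control was 0.325 on the log2 scale, while larger ones such as that of Myc (1.28) were not called, so with 4 mice a group changes of either size may have been missed.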

Other observations

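Several single genes outside the groups above changed and were called in all 8 leave-one-out fits. Bmf, which promotes apoptosis, fell from 20.5, 21.9, 15.4 and 18.1 CPM in control libraries 1 to 4 to 6.85, 6.99, 4.74 and 3.36 CPM in dosed libraries 17 to 20 (1.79 on the log2 scale, adjusted p = 2.54e-05 by edgeR). Plxnb1, a semaphorin receptor, fell by 1.90 (adjusted p = 4.17e-05) and Il6ra, the interleukin 6 receptor of hepatocytes, by 1.32 (adjusted p = 0.00144). Enho, which encodes the secreted peptide adropin, fell by 1.69 and the fatty acid carrier Fabp5 by 1.75 (adjusted p = 0.00638 and 0.0079).

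Of 18 hepatocyte transcription factor genes 3 fell and none rose, against 1.43% and 3.18% of all genes. The number that fell was 0 without library 1, 19 or 20 and when only the 2 groups were fitted, 1 without library 3 and 2 without the libraries apart. Foxa3 fell by 1.22 (adjusted p = 0.0144), called in 4 of 8 leave-one-out fits, with adjusted p = 0.0765 without library 1. Hnf4a had -0.24 ± 0.18 (adjusted p = 0.645). Of 23 genes of the ER stress and ATF4 response 2 fell, against 1.43% of all genes. Herpud1 fell by 0.68 (called in 5 of 8 leave-one-out fits, with adjusted p = 0.0658 without library 20) and Chac1 by 1.50 (called in 5 of 8 leave-one-out fits, with adjusted p = 0.0676 without library 20). Of 18 circadian clock genes 1 rose, Npas2, and 2 fell, Per1 and Nr1d1, against 3.18% and 1.43% of all genes. Npas2 (log2 change 1.96 ± 0.53, adjusted p = 0.0334) was not called without the libraries apart (adjusted p = 0.13) and was called in 2 of 8 leave-one-out fits, with adjusted p = 0.131 without library 20. Per1 (log2 change -1.54 ± 0.43, adjusted p = 0.046) was called in 2 of 8 leave-one-out fits, with adjusted p = 0.183 without library 4. The hour of tissue collection was not given in the sources used here. Afp, the fetal liver marker, was at 3.85, 3.32, 3.88 and 4.11 CPM against 4.64, 4.27, 4.32 and 4.31 CPM, without overlap, and was not called (log2 change 0.21 ± 0.15, adjusted p = 0.626).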
